A study of Mus musculus with 17 samples.

Results

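The 10 genes described here encode the enzymes that methylate histone H3 at lysine 4 (H3K4) and the core subunits these enzymes share. They were taken as the probe sets whose annotation names exactly 1 of the symbols Kmt2a, Kmt2b, Kmt2c, Kmt2d, Setd1a, Setd1b, Ash2l, Rbbp5, Wdr5 and Dpy30. This gave 12 probe sets, of 21789 that name a single gene and 35512 in all. Kmt2d and Setd1b have 2 probe sets each, and the probe set with the higher mean stands for the gene, as it does for each of the 19938 genes tested.

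RNA of pancreatic islets from 2-month-old mice was measured on 17 Affymetrix whole-transcript arrays. There were 3 arrays of wt mice and 3 of mice with the RIP-Cre transgene, which carries Cre recombinase driven by the rat insulin promoter and so acts in beta cells. The knockout groups carry the same transgene with floxed alleles. They are Men1flf, RIP-Cre (3 arrays, called the Men1 knockout), Rbp2flf, RIP-Cre (4 arrays, the Rbp2 knockout) and Men1flf, Rbp2flf, RIP-Cre (4 arrays, the double knockout). All 3 knockout groups were compared with the RIP-Cre arrays, so these comparisons share their controls. Whole islets were taken, in which cells other than beta cells keep the floxed genes. The labels do not say that the arrays of a group come from separate animals, and p-values then reflect the spread among these arrays alone, which may be technical. Fewer cells of a type and less RNA per cell cannot be told apart in such samples.

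Methylation of H3K4 marks active promoters and enhancers. In mammals it is written by complexes built around a catalytic SET-domain enzyme, and each enzyme works with the same scaffold of Wdr5, Rbbp5, Ash2l and Dpy30. Setd1a and Setd1b account for most trimethylation at promoters, Kmt2a and Kmt2b act at selected CpG-rich promoters, and Kmt2c and Kmt2d act mainly at enhancers. Menin, the product of Men1, is a subunit of the Kmt2a and Kmt2b complexes and a tumour suppressor in endocrine cells, and Rbp2, now named Kdm5a, removes methyl groups from H3K4. The comparisons ask whether the RNA of the methylating machinery itself differed once menin or the demethylase had been deleted.

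Menin binds the amino-terminal end of Kmt2a, and the bases that follow the first ATG of the gene are shown for that reason. They lie at chr9:44881240-44881274 on the minus strand (RefSeq, GRCm38.p6), 5′ to 3′, with the ATG in capitals.
Kmt2a: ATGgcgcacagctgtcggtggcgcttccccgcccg

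The complexes of Kmt2a, Kmt2b, Setd1a and Setd1b are drawn to unmethylated CpG through a CXXC zinc finger in the enzyme or in its partner Cxxc1, so CG was counted in the RefSeq promoter windows of the members. CG reads the same on both strands and cannot overlap itself. A window holds 300 bases, 250 of them before an annotated start, and 7 of the 10 members have at least 1. Shown 5′ to 3′, with each CG in capitals, are the bases before the annotated gene start of Kmt2c (chr5:25498856-25499033, minus strand), Wdr5 (chr2:27514897-27515146, plus strand) and Rbbp5 (chr1:132477117-132477347, plus strand), which had the highest and the lowest counts among members with 1 window and, in Wdr5, a count between them from a core subunit.
Kmt2c: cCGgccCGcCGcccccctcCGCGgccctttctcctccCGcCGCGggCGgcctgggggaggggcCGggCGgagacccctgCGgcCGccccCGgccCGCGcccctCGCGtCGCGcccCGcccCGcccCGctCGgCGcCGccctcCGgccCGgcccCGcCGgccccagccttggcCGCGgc
Wdr5: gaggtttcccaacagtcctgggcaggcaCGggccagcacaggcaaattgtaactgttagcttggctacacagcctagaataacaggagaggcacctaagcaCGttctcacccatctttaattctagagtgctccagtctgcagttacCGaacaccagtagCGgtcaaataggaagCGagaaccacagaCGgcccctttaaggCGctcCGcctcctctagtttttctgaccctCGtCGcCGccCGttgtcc
Rbbp5: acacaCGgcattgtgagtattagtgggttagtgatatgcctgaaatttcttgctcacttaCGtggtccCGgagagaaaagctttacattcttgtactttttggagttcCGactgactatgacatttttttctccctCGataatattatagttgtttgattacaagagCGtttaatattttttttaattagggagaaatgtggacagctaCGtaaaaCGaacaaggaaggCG

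The whole window of Kmt2c held 56 CG, a count reached by 0.195% of all 32851 windows. The window of Kmt2a held 36 CG, that of Setd1a 35 and that of Kmt2d 27, reached by 6.23%, 6.95% and 15.5% of windows. The windows of Wdr5 and Rbbp5 held 22 and 16 CG, reached by 23.1% and 33% of windows. Dpy30 has 4 windows, with 1 to 39 CG. The median window held 7, and 94.6% of windows held at least 1. These counts describe the windows, and no methylation or binding was measured.

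The arrays read as islets, with the insulin gene Ins2 between 13.54 and 13.74 on all 17 arrays. They were not level with each other in the middle of the range. The upper quartile of all probe sets was 8.92 to 8.95 on every array, while the median of the tested genes was 7.97 to 8.16 on RIP-Cre arrays and 7.86 to 7.87 on Men1 knockout arrays. Genes with high levels were shifted up in the knockouts and the rest of the genes down. The median difference in the Men1 knockout was 0.20 in the 10% of genes with the highest levels, which holds Kmt2a, Kmt2c, Kmt2d and Setd1b, and -0.23 over all genes. The calls below were for that reason also computed after cyclic loess normalization, which removes shifts that depend on level, and with the median of each array held fixed in the fit. The medians of the RIP-Cre arrays all lay above those of the Men1 and double knockout arrays. The fit with the median held fixed can therefore hardly separate genotype from the shift, and a call lost there does not show that a difference is absent. The mean of 8 beta cell markers was lowest on RIP-Cre array 3, at 11.71, and 12.52 to 12.59 on Men1 knockout arrays. The mean of 6 markers of acinar cells, the enzyme-secreting cells around the islets, was 10.70 on RIP-Cre array 3 and 8.10 and 9.25 on the other RIP-Cre arrays. Of the beta cell markers 5 of 8 were higher in the Men1 and in the double knockout and 2 of 8 in the Rbp2 knockout. Of 6 markers of the other endocrine cells 3 were lower in the Men1 and in the double knockout, and of the acinar markers 1 was lower in the Men1 knockout and 0 passed in the others. All 3 measured markers of Schwann cells, the glia around the islets, were lower in the Men1 and in the double knockout. Of 6 endothelial markers 2 were lower in each of these and 2 higher in the Rbp2 knockout. Of 7 macrophage markers 2 were higher and 1 lower in the Men1 knockout and 2 higher in the double knockout. Of 3 duct markers 1 was lower in the Men1 knockout, and of 5 lymphocyte markers 1 was higher in the Men1 and in the double knockout. The part of these shifts in the results was not tested.

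Men1 itself read 9.31, 9.49 and 9.38 on RIP-Cre arrays, 8.14, 8.43 and 8.42 on Men1 knockout arrays and 8.87, 8.54, 8.64 and 8.46 on double knockout arrays, with no overlap. It fell by 1.06 (SE 0.11, limma adjusted p = 3.08e-05) and by 0.77 (adjusted p = 0.000558). Kdm5a, the gene labelled Rbp2, passed in none of the comparisons. It read 9.37, 9.31 and 9.09 on RIP-Cre arrays, 9.18, 9.02, 9.01 and 8.95 on Rbp2 knockout arrays and 9.39, 9.07, 9.39 and 9.10 on double knockout arrays, and both knockouts overlapped with RIP-Cre. The differences were -0.22 (limma adjusted p = 0.148) in the Rbp2 knockout and -0.02 (adjusted p = 0.896) in the double knockout, so this probe set does not set the arrays labelled with the Rbp2 deletion apart. Where its probes lie relative to the deleted part was not analysed here.

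The transgene alone moved none of the members past the test. In RIP-Cre against wt, 0 of 10 members and 0 of 19938 genes (0%) were called at an adjusted p under 0.05 (limma, Benjamini-Hochberg over all genes). Before adjustment, 0 members and 552 genes had a p under 0.05. The differences of the members lay between -0.12, for Dpy30, and 0.12, for Rbbp5.

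In the Men1 knockout 4 of 10 members passed the test, with Kmt2c and Ash2l higher and Setd1b and Kmt2d lower than in RIP-Cre. Of all genes 53.5% passed, 15.7% higher and 37.8% lower, so 4 of 10 is near the background. In the Rbp2 knockout no member passed, where 13.4% of all genes did, 6.7% in each direction. In the double knockout 2 of 10 passed, both higher and both core subunits, Ash2l and Wdr5, against 33.7% of all genes, 13% higher and 20.6% lower. Kmt2d is counted here by its probe set with the higher mean. Its other probe set passed as higher in the Men1 knockout (0.49, limma adjusted p = 0.00456) and in the double knockout (0.38, adjusted p = 0.0195). The median difference of the members was -0.085 in the Men1 knockout, -0.07 in the Rbp2 knockout and -0.02 in the double knockout, beside -0.23, -0.13 and -0.15 over all genes. After cyclic loess the members gave -0.18, -0.18 and -0.15, beside -0.015, -0.0073 and -0.0071 over all genes. Whether the members lay above or below all genes thus depended on the scaling.

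**Figure D1:**
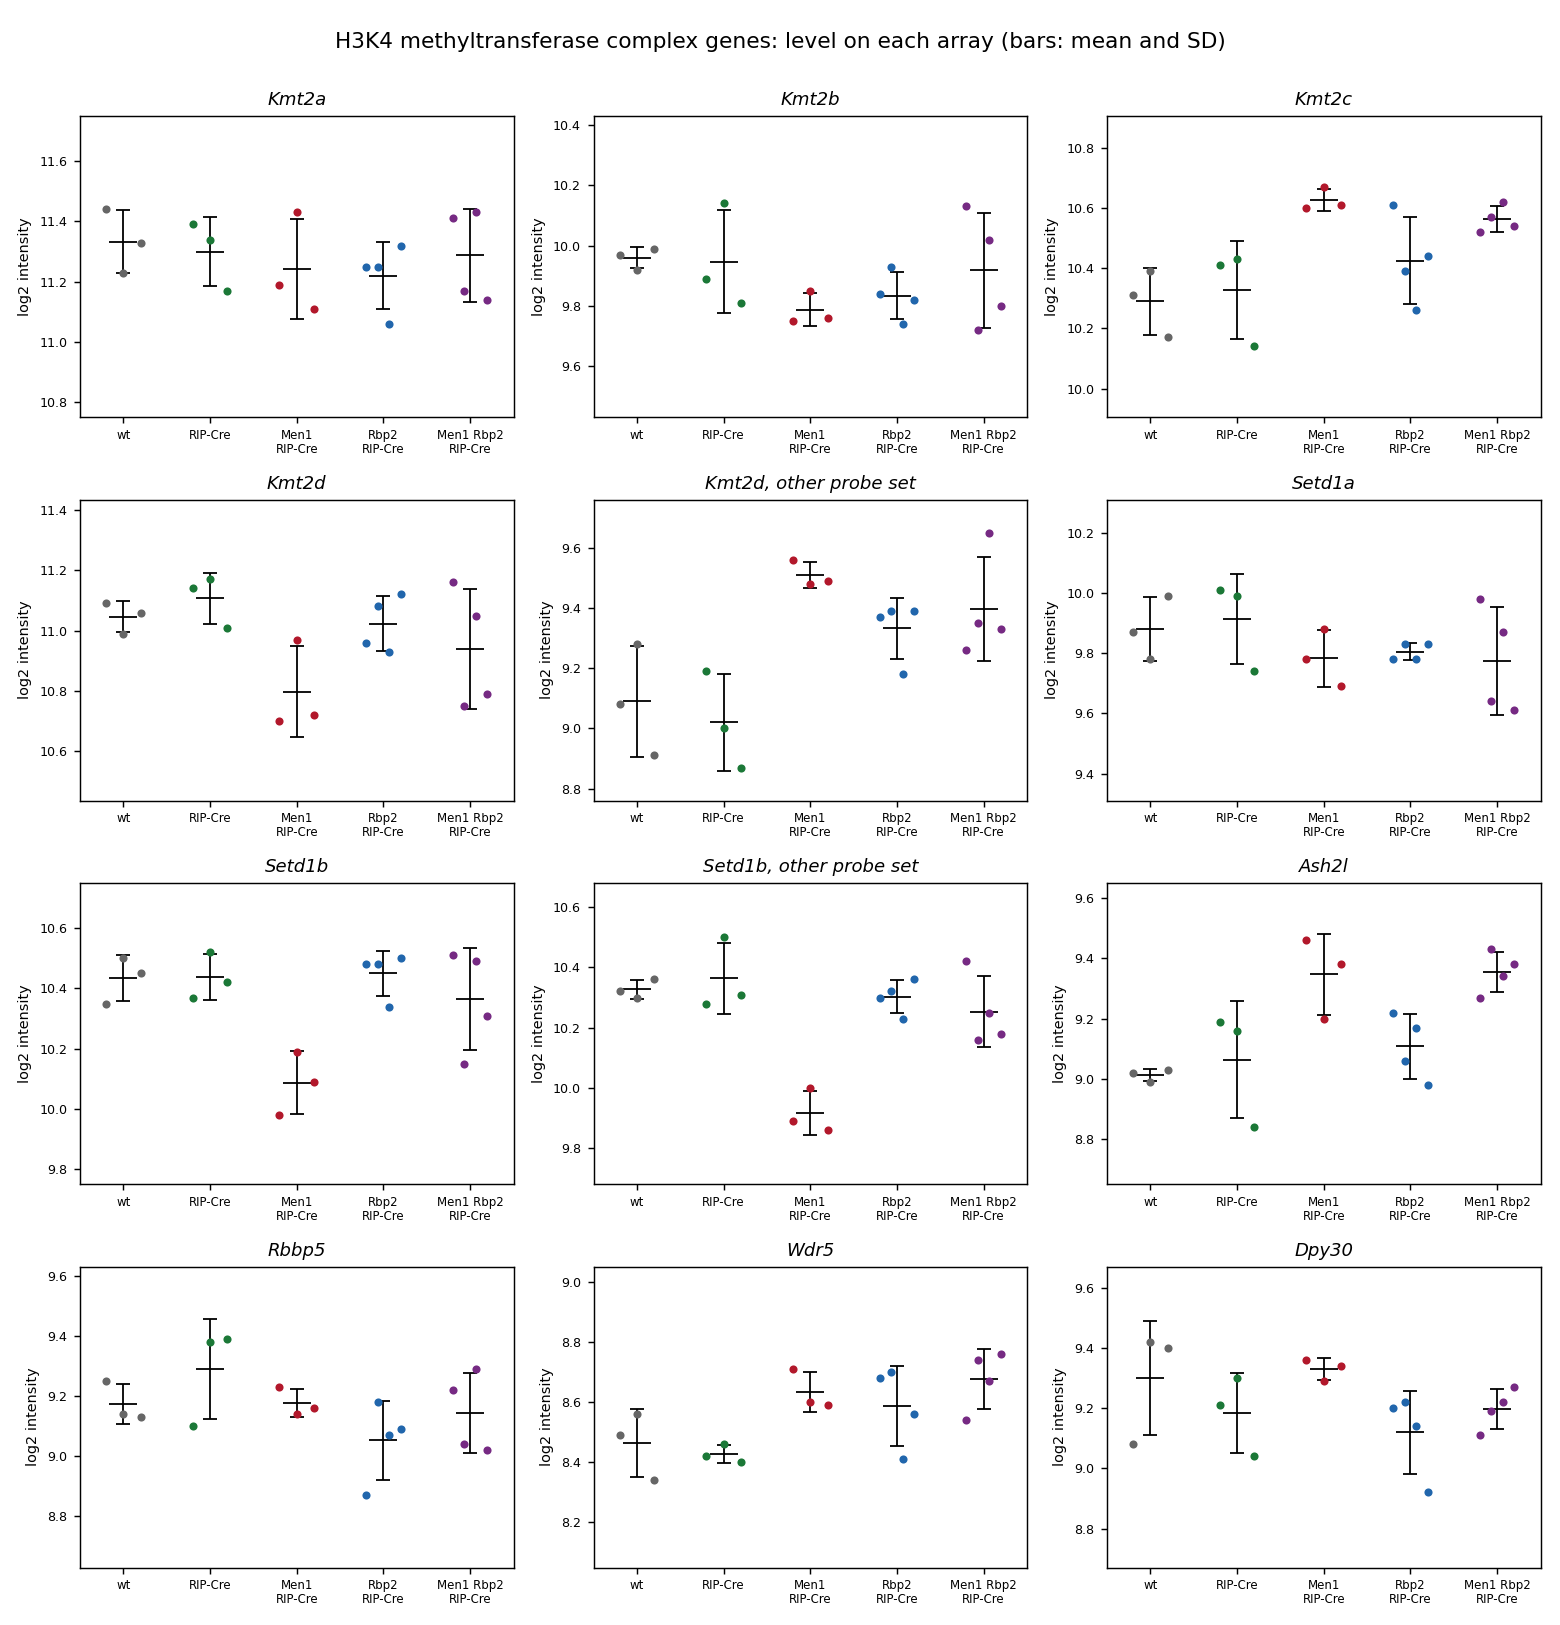
Level of each member on each of the 17 arrays, as log2 intensity, by genotype; points are arrays, bars are the mean and SD, and every panel spans the same number of log2 units. The 3 Men1 knockout arrays lie below all wt, RIP-Cre and Rbp2 knockout arrays in both panels of Setd1b, where double knockout array 2, at 10.15, lies among them in one panel, and the panels of Kmt2d move in opposite directions.

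Setd1b, the enzyme of a Set1 complex, had the widest spread of group means among the enzymes, 0.36 on the log2 scale. Its level was 10.35, 10.50 and 10.45 on wt arrays and 10.37, 10.52 and 10.42 on RIP-Cre arrays. It was 9.98, 10.19 and 10.09 on Men1 knockout arrays, 10.48, 10.48, 10.34 and 10.50 on Rbp2 knockout arrays and 10.51, 10.15, 10.49 and 10.31 on double knockout arrays. The Men1 knockout arrays were all below the RIP-Cre arrays, and those of the other knockouts overlapped with them. Setd1b fell by 0.35 in the Men1 knockout (SE 0.10, n = 3 and 3, limma adjusted p = 0.0108), a change of -21.5% on the linear scale. The other knockouts gave 0.01 (95% interval -0.19 to 0.21, limma adjusted p = 0.924) in the Rbp2 knockout and -0.07 (-0.27 to 0.13, adjusted p = 0.557) in the double knockout.

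The other probe set of Setd1b was also lowest in the Men1 knockout. It read 10.28, 10.50 and 10.31 on RIP-Cre arrays and 9.86 to 10 on Men1 knockout arrays, a fall by 0.45 (SE 0.09, limma adjusted p = 0.00164 over 21789 probe sets). After cyclic loess the fall of Setd1b was 0.54 (a difference of -0.54, adjusted p = 0.00119). With the array median held fixed the difference was -0.38 with an adjusted p of 0.189, and without Men1 knockout array 1 it was -0.30 with an adjusted p of 0.0503, so both ended the call.

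Whether the fall of Setd1b was smaller once Rbp2 was also deleted was tested directly. In the double knockout against the Men1 knockout the difference was 0.28 (SE 0.10, 95% interval 0.08 to 0.48, limma adjusted p = 0.187), and the arrays overlapped, since double knockout array 2, at 10.15, lay below Men1 knockout array 2, at 10.19. The interaction, which is the effect of Rbp2 loss in Men1 knockouts minus its effect in RIP-Cre, was 0.27 (95% interval -0.02 to 0.55, adjusted p = 0.158). The other probe set gave 0.34 (95% interval 0.16 to 0.51, adjusted p = 0.0573) and 0.40 (0.14 to 0.65, adjusted p = 0.0585) for these tests. On that probe set the double knockout arrays, at 10.16 to 10.42, were all above the Men1 knockout arrays, at 9.86 to 10. Neither test passed on either probe set. The interval of the first lies above 0 on both probe sets, and that of the interaction on the other probe set only.

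Setd1a, the paralog of Setd1b, showed no difference past the test. It read 10.01, 9.99 and 9.74 on RIP-Cre arrays and 9.78, 9.88 and 9.69 on Men1 knockout arrays, which overlap. Its differences from RIP-Cre were -0.13 (95% interval -0.36 to 0.10), -0.11 (-0.32 to 0.11) and -0.14 (-0.35 to 0.08) in the Men1, Rbp2 and double knockouts, with limma adjusted p-values of 0.312, 0.429 and 0.284. After cyclic loess they were -0.24, -0.21 and -0.24, and with the array median held fixed -0.12, -0.10 and -0.13, and none of these passed. Setd1a was among the enzymes with the narrowest spread of group means, 0.14, with Kmt2a at 0.11.

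Kmt2a and Kmt2b, the enzymes that bind menin, did not pass in any comparison of the deposited values. Kmt2a read 11.39, 11.34 and 11.17 on RIP-Cre arrays, 11.19, 11.43 and 11.11 on Men1 knockout arrays, 11.25, 11.25, 11.06 and 11.32 on Rbp2 knockout arrays and 11.41, 11.17, 11.43 and 11.14 on double knockout arrays. All 4 groups overlapped, and the difference in the Men1 knockout was -0.06 (95% interval -0.30 to 0.18, limma adjusted p = 0.680). Kmt2b read 9.89, 10.14 and 9.81 on RIP-Cre arrays and 9.75, 9.85 and 9.76 on Men1 knockout arrays, a difference of -0.16 (-0.39 to 0.07, adjusted p = 0.222). Kmt2b read 9.84, 9.93, 9.74 and 9.82 on Rbp2 knockout arrays and 10.13, 9.72, 10.02 and 9.80 on double knockout arrays, both overlapping with RIP-Cre. Its differences there were -0.11 (95% interval -0.33 to 0.10) and -0.03 (-0.25 to 0.19), and those of Kmt2a were -0.08 (-0.31 to 0.15) and -0.01 (-0.24 to 0.21). Cyclic loess, which sets genes of high level lower in the knockouts, gave -0.35 for Kmt2a (adjusted p = 0.0446) and -0.28 for Kmt2b (adjusted p = 0.0473) in the Men1 knockout. With the array median held fixed the values were -0.06 and -0.21, and neither passed.

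Kmt2c, an enzyme of enhancers, read 10.41, 10.43 and 10.14 on RIP-Cre arrays and 10.60, 10.67 and 10.61 on Men1 knockout arrays, which were all higher. It read 10.61, 10.39, 10.26 and 10.44 on Rbp2 knockout arrays, which overlapped with RIP-Cre, and 10.52, 10.57, 10.62 and 10.54 on double knockout arrays, which were all higher. Kmt2c rose by 0.30 in the Men1 knockout (SE 0.10, limma adjusted p = 0.0225), and the difference in the double knockout was 0.24 (95% interval 0.03 to 0.44, adjusted p = 0.0641). The difference in the Men1 knockout was 0.10 after cyclic loess (adjusted p = 0.281) and 0.02 with the array median held fixed (adjusted p = 0.948). Omitting RIP-Cre array 3 gave 0.21 (adjusted p = 0.122), and omitting Men1 knockout array 2 gave 0.28 (adjusted p = 0.0662). The call of Kmt2c thus held on the deposited values and in none of these 4 settings.

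Kmt2d, the paralog of Kmt2c, has probe sets that disagree, so no direction is given for the gene. The probe set with the higher mean read 11.14, 11.17 and 11.01 on RIP-Cre arrays and 10.70, 10.97 and 10.72 on Men1 knockout arrays, all lower, with a difference of -0.31 (SE 0.11, limma adjusted p = 0.0310). The other read 9.19, 9.00 and 8.87 on RIP-Cre arrays and 9.56, 9.48 and 9.49 on Men1 knockout arrays, all higher, with a difference of 0.49 (SE 0.12, adjusted p = 0.00456 over 21789 probe sets). The probe sets disagreed in the other knockouts too, with -0.17 (adjusted p = 0.210) and 0.38 (adjusted p = 0.0195) in the double knockout and -0.08 (adjusted p = 0.559) and 0.31 (adjusted p = 0.0655) in the Rbp2 knockout. The call of the first probe set in the Men1 knockout was lost without any 1 of 4 arrays: -0.29 without RIP-Cre array 1, -0.28 without RIP-Cre array 2, -0.26 without Men1 knockout array 1 and -0.27 without Men1 knockout array 3 (adjusted p = 0.0710, 0.0766, 0.108 and 0.0945).

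**Figure D2:**
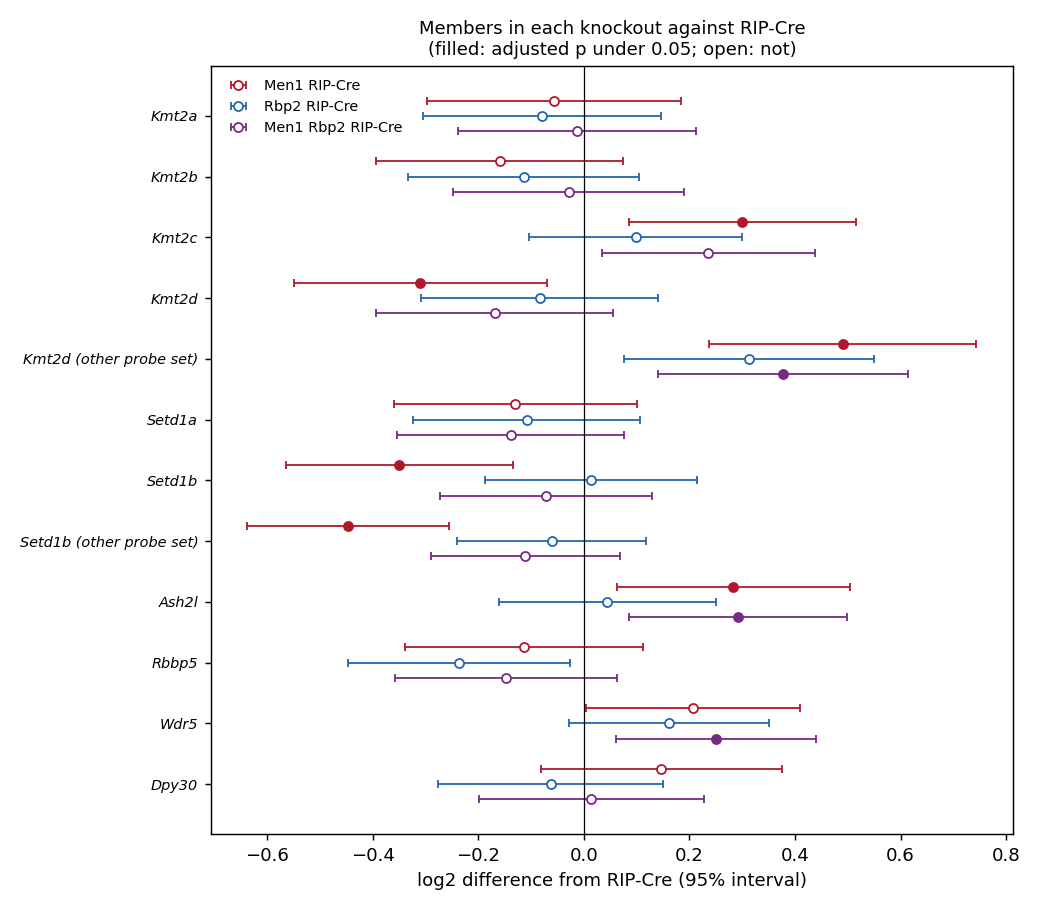
Difference of each probe set of the members from RIP-Cre in each knockout, on the log2 scale with 95% intervals from limma; filled points have an adjusted p under 0.05. Setd1b is left of 0 in the Men1 knockout on both probe sets, while Ash2l is right of 0 in the Men1 and the double knockout.

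Among the core subunits Ash2l, which together with Rbbp5 stimulates the catalytic activity of the enzymes, had the widest spread of group means, 0.34. It read 9.02, 8.99 and 9.03 on wt arrays and 9.19, 9.16 and 8.84 on RIP-Cre arrays. It read 9.46, 9.20 and 9.38 on Men1 knockout arrays, 9.22, 9.06, 9.17 and 8.98 on Rbp2 knockout arrays and 9.27, 9.43, 9.34 and 9.38 on double knockout arrays. All 7 arrays without Men1 lay above all RIP-Cre arrays, the closest being RIP-Cre array 1, at 9.19, and Men1 knockout array 2, at 9.20.

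Ash2l rose by 0.28 in the Men1 knockout (SE 0.10, limma adjusted p = 0.0317) and by 0.29 in the double knockout (SE 0.10, adjusted p = 0.0320), or 21.7% and 22.4% on the linear scale. The Rbp2 knockout gave 0.04 (95% interval -0.16 to 0.25, adjusted p = 0.744). Against the Rbp2 knockout, the double knockout arrays were all higher, with a difference of 0.25 (95% interval 0.06 to 0.44, adjusted p = 0.245). Cyclic loess left both calls in place, at 0.27 (adjusted p = 0.0396) and 0.28 (adjusted p = 0.0350), and the array median held fixed gave 0.07 and 0.14, neither past the test.

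RIP-Cre array 3 had the lowest Ash2l of the RIP-Cre group, at 8.84, and it is the array with the highest acinar and lowest beta cell markers. It also had the highest median of the tested genes, 8.16. Men1 knockout array 1, with an acinar mean of 10.495, had the highest Ash2l of all arrays, 9.46. The part of these traits in the level of Ash2l was not tested. Without RIP-Cre array 3 the difference was 0.17 in the Men1 knockout (limma adjusted p = 0.179) and 0.18 in the double knockout (adjusted p = 0.198). The call in the Men1 knockout was also lost without Men1 knockout array 1 (0.23, adjusted p = 0.123) or array 3 (0.27, adjusted p = 0.0805), and that in the double knockout without its array 2 (0.27, adjusted p = 0.0795) or array 4 (0.28, adjusted p = 0.0730). With wt as the control in place of RIP-Cre the differences were 0.33 (adjusted p = 0.0161) and 0.34 (adjusted p = 0.0186).

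Wdr5, the propeller protein that bridges enzyme and scaffold, read 8.42, 8.46 and 8.40 on RIP-Cre arrays. It read 8.71, 8.60 and 8.59 on Men1 knockout arrays, 8.68, 8.70, 8.41 and 8.56 on Rbp2 knockout arrays and 8.54, 8.74, 8.67 and 8.76 on double knockout arrays. The Men1 and double knockout arrays were all above the RIP-Cre arrays. Wdr5 rose by 0.25 in the double knockout (SE 0.09, limma adjusted p = 0.0413), while the Men1 knockout gave 0.21 (95% interval 0.00 to 0.41, adjusted p = 0.0766) and the Rbp2 knockout 0.16 (-0.03 to 0.35, adjusted p = 0.189). After cyclic loess Wdr5 passed in the Men1 knockout at 0.30 (adjusted p = 0.0271) and in the double knockout at 0.32 (adjusted p = 0.0197), and with the array median held fixed in neither (0.04 and 0.13). With wt as the control the difference in the double knockout was 0.21 (adjusted p = 0.0756).

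The call of Wdr5 in the double knockout was lost without any 1 of 6 of its 7 arrays. The values were 0.25, 0.27 and 0.24 without RIP-Cre array 1, 2 or 3 (limma adjusted p = 0.0822, 0.0537 and 0.125). They were 0.23, 0.25 and 0.22 without double knockout array 2, 3 or 4 (adjusted p = 0.0949, 0.0589 and 0.108).

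Rbbp5, the partner of Ash2l in a dimer that holds the enzyme, read 9.10, 9.38 and 9.39 on RIP-Cre arrays and 8.87, 9.18, 9.07 and 9.09 on Rbp2 knockout arrays. These overlapped, and the difference of -0.24 (95% interval -0.45 to -0.03) had the lowest p of the members in the Rbp2 knockout, with a limma adjusted p of 0.0976. The Men1 knockout arrays, at 9.23, 9.14 and 9.16, and the double knockout arrays, at 9.22, 9.04, 9.29 and 9.02, also overlapped with RIP-Cre. Their differences were -0.11 and -0.15 (adjusted p = 0.368 and 0.243). Rbbp5 was the single member with an unadjusted p under 0.05 there, and after cyclic loess or with the array median held fixed 0 of 10 members passed in the Rbp2 knockout.

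Dpy30, the small subunit that docks on Ash2l, read 9.21, 9.30 and 9.04 on RIP-Cre arrays and 9.36, 9.29 and 9.34 on Men1 knockout arrays, which overlapped. Its differences were 0.15, -0.06 and 0.01 in the Men1, Rbp2 and double knockouts (limma adjusted p = 0.251, 0.648 and 0.919). In the double knockout its arrays, 9.11, 9.19, 9.22 and 9.27, were all below those of the Men1 knockout, with a difference of -0.13 (95% interval -0.35 to 0.08, adjusted p = 0.552).

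**Figure D3:**
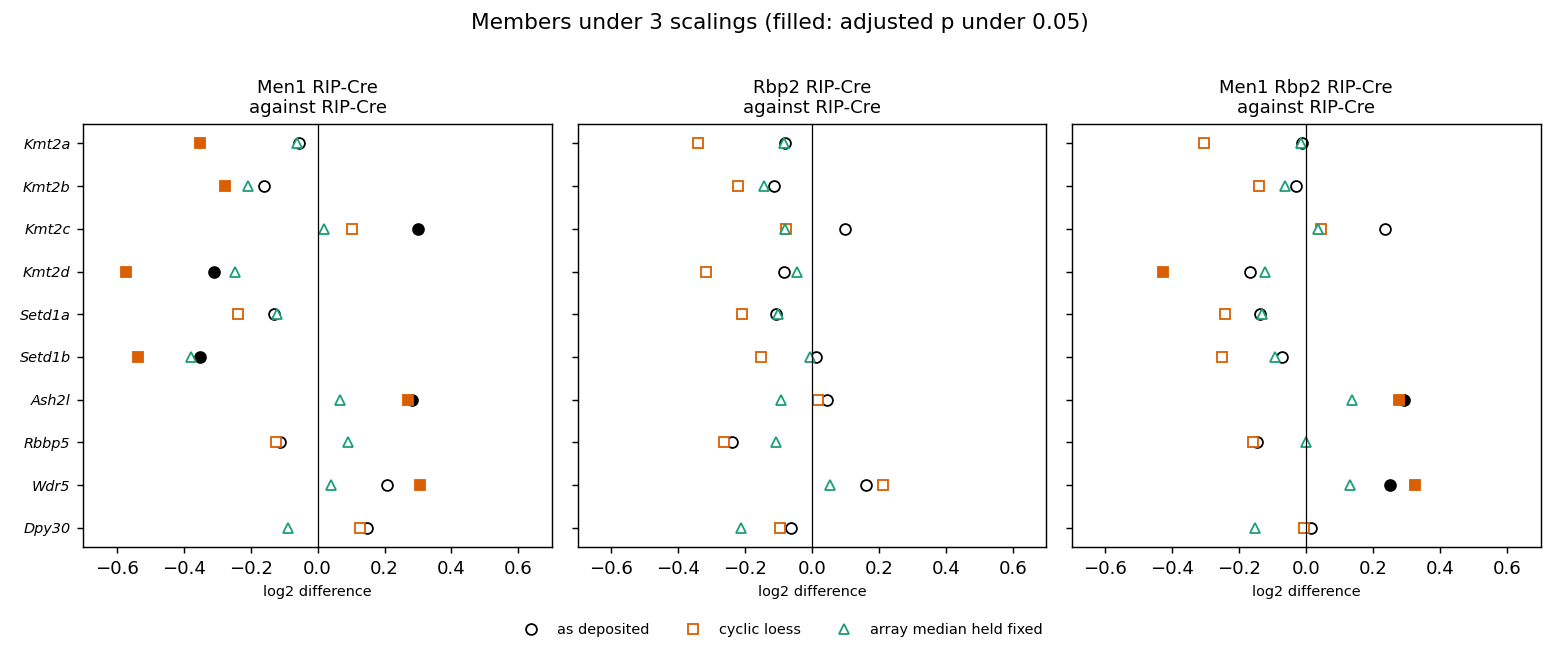
Difference of each member from RIP-Cre in each knockout on the deposited values (circles), after cyclic loess (squares) and with the array median held fixed (triangles), in log2 units; filled symbols have an adjusted p under 0.05. In the Men1 knockout 4 members pass on the deposited values, 6 after cyclic loess and 0 with the median fixed, and Setd1b lies at -0.35, -0.54 and -0.38.

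After cyclic loess 6 of 10 members passed in the Men1 knockout, Ash2l and Wdr5 higher and Kmt2a, Kmt2b, Kmt2d and Setd1b lower, where 34.5% of all genes did. Kmt2d counts here by its probe set with the higher mean, and its other probe set was not tested after cyclic loess. In the double knockout 3 of 10 passed, where 25.3% of all genes did, with Ash2l and Wdr5 higher and Kmt2d lower, at -0.43 (limma adjusted p = 0.0177). By the probe sets that stand for the genes, the enzymes and the core subunits differ in level. Every enzyme was at 9.61 or more and every core subunit at 9.46 or less on all arrays. The other probe set of Kmt2d, at 8.87 to 9.65, did not keep to this split. On the deposited values, genes of like level had medians in the Men1 knockout of 0.06 or 0.20 for the enzymes. For the core subunits these were -0.09 or 0.01. In the Men1 knockout the enzymes had a median of -0.31 and the core subunits one of 0.20 after cyclic loess. On the deposited values the medians of the enzymes and the core subunits were -0.15 and 0.18. The part of level in this split was not tested. With the array median held fixed no member passed in any comparison, where 1.99%, 0.211% and 1.4% of all genes did in the Men1, Rbp2 and double knockouts against RIP-Cre. The medians of the enzymes and the core subunits in the Men1 knockout were then -0.16 and 0.05.

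In the order of group means, Setd1b stood at 10.45 ± 0.07 (SD, n = 4) in the Rbp2 knockout, 10.44 ± 0.08 (n = 3) in RIP-Cre, 10.43 ± 0.08 (n = 3) in wt, 10.37 ± 0.17 (n = 4) in the double knockout and 10.09 ± 0.11 (n = 3) in the Men1 knockout. The arrays of the first 4 groups overlap. The Men1 knockout was past the test against RIP-Cre. Its neighbour in this order is the double knockout, which overlapped with it on the arrays. The double knockout against the Men1 knockout did not pass (0.28, limma adjusted p = 0.187). Wdr5 ran from 8.68 ± 0.10 in the double knockout through 8.63 ± 0.07 in the Men1 knockout, 8.59 ± 0.13 in the Rbp2 knockout and 8.46 ± 0.11 in wt to 8.43 ± 0.03 in RIP-Cre. Each neighbour in this order of Wdr5 overlaps the next on the arrays.

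Loss of Rbp2 on top of Men1 loss, and of Men1 on top of Rbp2 loss, moved none of the members past the test. In the double knockout 0 of 10 passed against the Men1 knockout, where 1.67% of all genes did, and 0 of 10 against the Rbp2 knockout, where 1.2% did. For the interaction 0 of 10 passed, where 3.39% of all genes did. An unadjusted p under 0.05 was reached by 1, 1 and 0 members in these tests, Setd1b in the first and Ash2l in the second.

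The double knockout arrays fell into pairs for several members. Arrays 1 and 3 were above arrays 2 and 4 for Kmt2a, Kmt2b, Kmt2d, Setd1a, Setd1b and Rbbp5, and below them for Ash2l and Wdr5. Kmt2d is named here by its probe set with the higher mean. Its other probe set, at 9.26, 9.35, 9.65 and 9.33 on arrays 1 to 4, did not split in this way. Setd1b was 10.51 and 10.49 on the first pair and 10.15 and 10.31 on the second, and Kmt2b was 10.13 and 10.02 against 9.72 and 9.80. The acinar marker mean was 9.16 and 10.69 on arrays 1 and 3 and 8.72 and 8.47 on arrays 2 and 4. The median of the tested genes was 7.95 and 7.94 on the first pair and 7.9 and 7.88 on the second. Lymphocyte and Schwann cell marker means were also higher on the first pair, and beta cell and duct means were lower. Means of the other endocrine, endothelial and macrophage markers did not split in this way. The share of all genes that split like the members was not computed. The part of these traits in the pattern was not tested.

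The subunits that each belong to some of the complexes were all measured, 12 of 12. In the Men1 knockout 5 passed, 4 higher and Men1 itself lower, beside 53.5% of all genes. In the Rbp2 knockout 3 passed, all higher, beside 13.4%, and in the double knockout 5 passed, 4 higher and Men1 lower, beside 33.7%. After cyclic loess the counts were 7, 2 and 5, beside 34.5%, 9.42% and 25.3% of all genes, and Cxxc1, the CpG-binding subunit of the Set1 complexes, then fell by 0.29 in the Men1 knockout and by 0.34 in the double knockout (limma adjusted p = 0.0395 and 0.0188).

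The call with the lowest p among these subunits in the Rbp2 knockout was that of Men1, which was higher there. It read 10.24, 10.05, 10.11 and 10.09 on Rbp2 knockout arrays, all above the wt arrays, at 9.25, 9.45 and 9.31, and the RIP-Cre arrays. Men1 rose by 0.73 (SE 0.11, limma adjusted p = 0.00359), by 0.70 after cyclic loess (adjusted p = 0.00211) and by 0.68 with the array median held fixed (adjusted p = 0.0384). The call held without any 1 of the 7 arrays. Of the enzymes that bind menin, Kmt2a and Kmt2b, neither passed in the Rbp2 knockout.

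**Figure D4:**
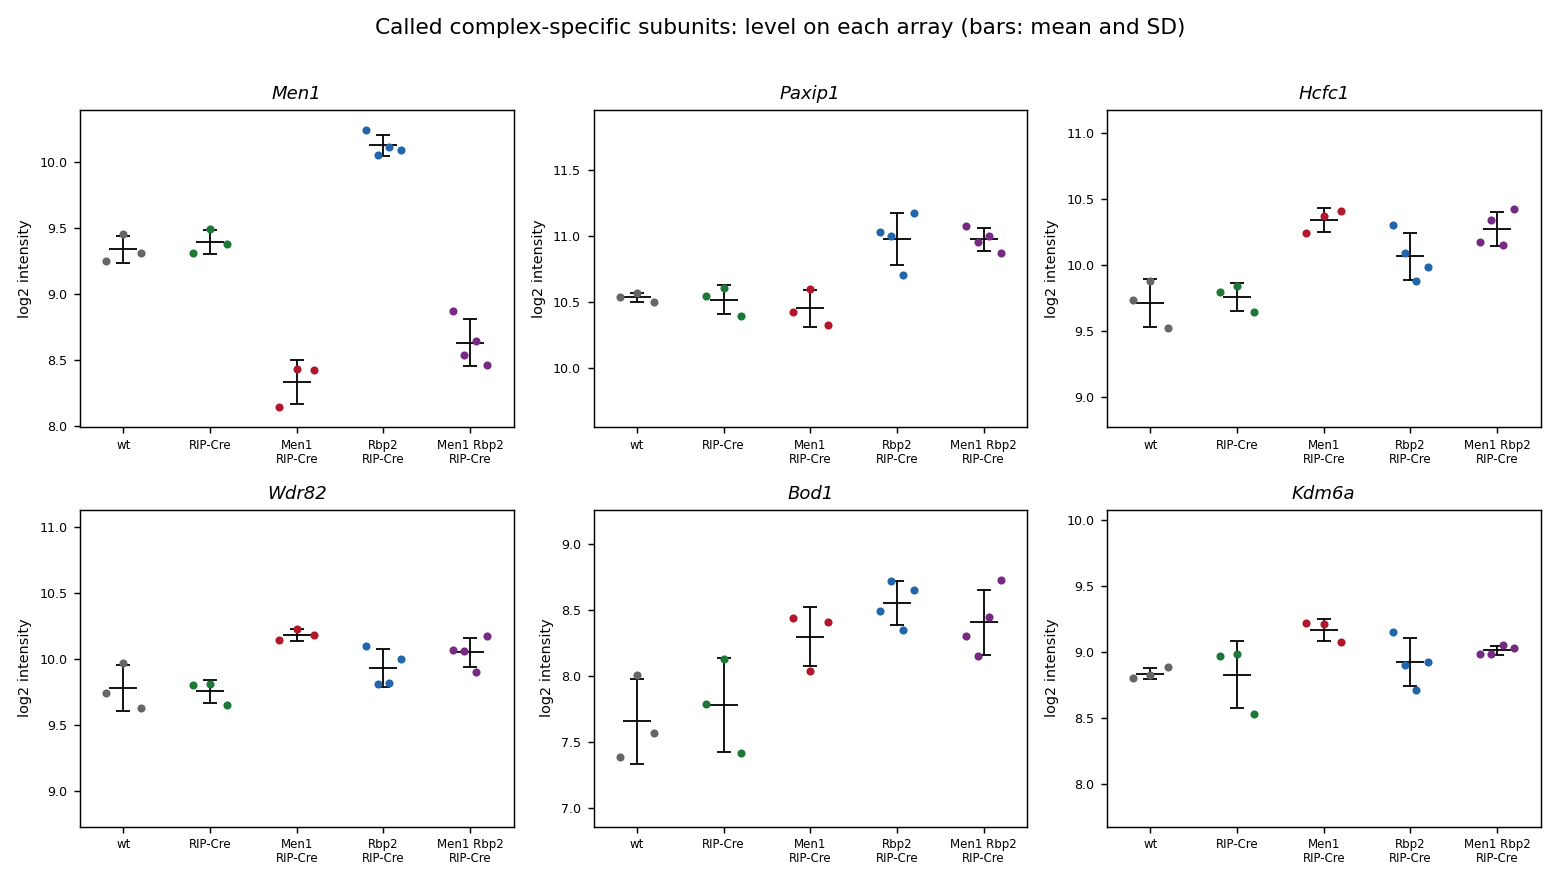
Level of the 6 complex-specific subunits that passed in at least 1 comparison with RIP-Cre, as log2 intensity on each of the 17 arrays by genotype; points are arrays, and bars are the mean and SD. Paxip1 lies between 10.71 and 11.18 on the 8 arrays labelled with the Rbp2 deletion and between 10.33 and 10.61 on the other 9.

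Hcfc1 and Wdr82 serve the Set1 complexes, Hcfc1 also those of Kmt2a and Kmt2b, and both were higher without Men1. Hcfc1 read 9.79, 9.84 and 9.64 on RIP-Cre arrays, 10.24, 10.37 and 10.41 on Men1 knockout arrays and 10.17, 10.34, 10.15 and 10.42 on double knockout arrays, with no overlap. It rose by 0.58 (limma adjusted p = 0.00190) and by 0.51 (adjusted p = 0.00540), and by 0.44 and 0.38 after cyclic loess (adjusted p = 0.00236 and 0.00735). Wdr82 rose by 0.43 in the Men1 knockout (adjusted p = 0.00518; 0.30 after cyclic loess, adjusted p = 0.0104) and by 0.30 in the double knockout (adjusted p = 0.0340; 0.17 after cyclic loess, adjusted p = 0.104). In the Men1 knockout both calls held without any 1 of the 6 arrays, while with the array median held fixed neither passed (0.23 and 0.15). Neither passed in the double knockout with the array median held fixed (0.26 and 0.10, adjusted p = 0.184 and 0.626). The call of Wdr82 in the double knockout was lost without RIP-Cre array 1 or 3 (0.32 and 0.24, adjusted p = 0.0506 and 0.147) and without its own array 1, 2 or 4 (0.29, 0.29 and 0.26, adjusted p = 0.0554, 0.0687 and 0.0970).

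Bod1, found with Setd1b, and Kdm6a, a demethylase of the Kmt2c and Kmt2d complexes, depended on single arrays. Bod1 read 7.79, 8.13 and 7.42 on RIP-Cre arrays and 8.49, 8.72, 8.35 and 8.65 on Rbp2 knockout arrays, and rose by 0.52, 0.77 and 0.63 in the Men1, Rbp2 and double knockouts (limma adjusted p = 0.0348, 0.0209 and 0.0179). Without RIP-Cre array 3 these values were 0.34, 0.59 and 0.45 (adjusted p = 0.188, 0.115 and 0.118). Its calls were also lost in the Men1 knockout without RIP-Cre array 1 or Men1 knockout array 1 or 3 (0.52, 0.45 and 0.46), in the Rbp2 knockout without its array 1 (0.79) and in the double knockout without its array 4 (0.52). Kdm6a rose by 0.34 in the Men1 knockout (adjusted p = 0.0271), a call lost without RIP-Cre array 3 (0.19, adjusted p = 0.169) or Men1 knockout array 1 or 2 (0.31 and 0.32, adjusted p = 0.0794 and 0.0737). After cyclic loess Bod1 gave 0.70, 0.88 and 0.76 (adjusted p = 0.0209, 0.0208 and 0.0142) and Kdm6a 0.36 in the Men1 knockout (adjusted p = 0.0213), all past the test. With the array median held fixed Bod1 gave 0.07, 0.49 and 0.31 (adjusted p = 0.917, 0.322 and 0.438), and the direction of Kdm6a flipped, to -0.0036 (adjusted p = 0.993).

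Paxip1, a subunit of the Kmt2c and Kmt2d complexes, was higher on all 8 arrays labelled with the Rbp2 deletion than on the other 9. It read 10.54, 10.57 and 10.50 on wt arrays, 10.55, 10.61 and 10.40 on RIP-Cre arrays and 10.43, 10.60 and 10.33 on Men1 knockout arrays. It read 11.03, 11.00, 10.71 and 11.18 on Rbp2 knockout arrays and 11.08, 10.96, 11.00 and 10.87 on double knockout arrays. Paxip1 rose by 0.46 in the Rbp2 knockout (SE 0.10, limma adjusted p = 0.0188), by 0.46 in the double knockout (adjusted p = 0.00654) and by 0.52 in the double against the Men1 knockout (adjusted p = 0.0142). The last, which does not use the RIP-Cre arrays, was 0.53 after cyclic loess (adjusted p = 0.00673) and 0.56 with the array median held fixed (adjusted p = 0.00907).

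Against RIP-Cre the calls of Paxip1 ended after cyclic loess, at 0.26 in the Rbp2 knockout (limma adjusted p = 0.0922) and 0.23 in the double knockout (adjusted p = 0.0877), and with the array median held fixed, at 0.39 and 0.38 (adjusted p = 0.224 and 0.137). In the Men1 knockout Paxip1 fell by 0.30 after cyclic loess (adjusted p = 0.0327). The call in the Rbp2 knockout was also lost without RIP-Cre array 3 (0.40, adjusted p = 0.0953) or Rbp2 knockout array 1 (0.44, adjusted p = 0.0571). The comparison with the Men1 knockout was lost without Men1 knockout array 1 (0.51, adjusted p = 0.0875), Men1 knockout array 3 (0.46, adjusted p = 0.0950) or double knockout array 1 (0.49, adjusted p = 0.0512). Of the members of the same complexes, Kmt2c gave 0.10 (adjusted p = 0.444) in the Rbp2 knockout.

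The other enzymes that add methyl groups to H3K4 or remove them were measured for 11 of 12 genes. In the Men1, Rbp2 and double knockouts 3, 2 and 1 of them passed, beside 53.5%, 13.4% and 33.7% of all genes. In the Men1 knockout the demethylase Kdm1a rose by 0.33 (limma adjusted p = 0.00687) and Kdm5b by 0.23 (adjusted p = 0.0488), and the meiotic methyltransferase Prdm9 fell by 0.50 (adjusted p = 0.00843), among genes of like level whose median was -0.39. In the Rbp2 knockout the methyltransferases Setd7 and Smyd2 rose by 0.23 and 0.25 (adjusted p = 0.0414 and 0.0492), and in the double knockout Kdm1a rose by 0.29 (adjusted p = 0.0178). After cyclic loess Kdm1b, at 0.25 (adjusted p = 0.043), and Smyd2, at -0.25 (adjusted p = 0.02875), newly passed in the Men1 knockout. Of the 6 calls on the deposited values, Kdm1a in the Men1 knockout remained past the test after cyclic loess, at 0.22 (adjusted p = 0.0406). The other 5 of these calls did not. With the array median held fixed none of the 6 passed, with Kdm1a at 0.19 and Prdm9 at -0.50 in the Men1 knockout (adjusted p = 0.389 and 0.230) and Setd7 and Smyd2 at 0.23 and 0.27 in the Rbp2 knockout (adjusted p = 0.224 and 0.248). Kdm1a and Prdm9 in the Men1 knockout passed without any 1 of the 6 arrays. Kdm5b was lost without RIP-Cre array 2 or 3 or any Men1 knockout array (0.14 to 0.24, adjusted p 0.0849 to 0.234), Kdm1a in the double knockout without RIP-Cre array 3 or its own array 2 (0.24 and 0.23, adjusted p = 0.0879 and 0.0564), and Setd7 and Smyd2 without any 1 of their 7 arrays (adjusted p from 0.0547 and from 0.0529).

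Outside these lists, the genes whose levels ran closest to Setd1b over the 17 arrays were Gcn1, Epn1, Elmo1, Fkbp15 and Fbrs, with Pearson r of 0.93, 0.93, 0.92, 0.91 and 0.91. Those closest to Ash2l were Armcx5, Vps25, Wdr33, Ate1 and Dlst, with r of 0.94, 0.92, 0.92, 0.91 and 0.91. After cyclic loess r was 0.79 for Elmo1 and 0.95 to 0.96 for the other 4 with Setd1b, and 0.77 for Dlst to 0.92 for Vps25 with Ash2l. These values describe the arrays, which share genotype groups and the array-wide shift, and carry no test.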

How the data were processed

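RNA of mouse pancreatic islets was measured on 17 Affymetrix whole-transcript arrays, labelled with a terminal labelling kit per the labels' protocols. The authors deposited 1 log2 intensity per probe set and array, a scale inferred from the values, and how these were normalized is not given in the sources used here. Probe sets were joined to genes through the platform's gene table, and those naming 1 gene were kept. No array was a copy of another (smallest root mean square difference 0.220), and the number of arrays limits the precision.

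Groups came from the genotypes in the sample labels. Means of the 5 groups were estimated over the 17 arrays together by limma 3.58.1 (lmFit, eBayes) in R 4.3.3, with 1 probe set a gene. A gene was called at a Benjamini-Hochberg adjusted p under 0.05 over 19938 genes. Other probe sets were adjusted over 21789 probe sets. The fit was tested on simulated data for the Men1 knockout against RIP-Cre, in 19938 genes, where 91% of 200 genes changed by 1 log2 unit were called, with 13 others. The simulated arrays had no array-wide shift, and the change put in was larger than the difference of any member. The share called therefore does not carry over to the members.

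The members and gene lists were chosen with earlier results of these data known. By the naming rule, all members, measured complex-specific subunits and other H3K4 genes may be named, with the 5 genes most alike in Pearson r to the enzyme and the core subunit of widest range. Alternatives were wt or both controls pooled as the control, only the arrays compared, a block for the repeat number, omission of genes below percentile 25 of mean level, all probe sets, normalization by quantiles or cyclic loess, a covariate for the array median, robust variances with a trend, and omission of each array in turn. Leaving out wt arrays 1 and 3 and RIP-Cre array 3, and the probe set with the lowest mean, were chosen after seeing the data. Promoter sequences are RefSeq's, build GRCm38.p6.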

Additional observations from a re-analysis of the deposited data

Results flagged for a closer look

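Setd1b on Rbp2 knockout array 3 read 10.34, with the other 3 arrays of that group at 10.48, 10.48 and 10.50. The gap to the nearest of them takes 0.875 of the range of the group. A gap of this relative size arises by chance in about 1 in 20 groups, and 20 groups of 4 arrays (10 members in the Rbp2 and in the double knockout) were examined.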

How the results depend on the processing

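The number of members called in the Men1 knockout was 4, and in the double knockout 2. With only the arrays of the groups compared these were 1 (Setd1b) and 0, with the array median as a covariate 0 and 0, and without the 3 control arrays with high medians 2 (Setd1b and Kmt2d) and 0. Leaving out 1 array at a time gave 1 to 3 and 0 to 2. The fall of Setd1b in the Men1 knockout kept its direction in every setting run, at -0.54 to -0.30. Kmt2d reversed to 0.49 and 0.38 with the probe set of lowest mean, and Kdm6a in the Men1 knockout to -0.0036 with the array median as a covariate. In the other 5 comparisons the number of members called was 0 in every setting run. The cause of these changes was not tested.

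Whether the repeat numbers pair the arrays was not tested. Over 31 pairs of arrays with the same number in different groups, the correlation of deviations from the group means was -0.30 to 0.45. Its median was 0.01, beside -0.005 for pairs with different numbers, and 10 pairs were over 0.1. Among arrays of other groups, 8 of 17 arrays correlated best with one of their own number, and the number expected by chance was not computed. With the replicate block, 4 members were called in the Men1 knockout and 1 (Ash2l) in the double knockout, where Wdr5 gave 0.24 (limma adjusted p = 0.0571), and 1933 genes in place of 675 for the interaction.

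The number of genes called also changed with the processing. In place of 10660, 2672 and 6716 genes in the Men1, Rbp2 and double knockouts, cyclic loess gave 6875, 1879 and 5048, the array median as a covariate 396, 42 and 280, and omission of RIP-Cre array 3 gave 6174, 223 and 2371. In the Rbp2 knockout the pooled control gave 6221 and the arrays compared alone 1080. After cyclic loess, calls in the Men1 knockout split into 3677 higher and 3198 lower. For the interaction the counts ran from 20, with the array median as a covariate, to 2783, without RIP-Cre array 2.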
